A study of Arabidopsis thaliana with 9 samples.

Results

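The 8 genes described here act on HYL1, a double-stranded RNA-binding protein that helps the endonuclease DCL1 cut primary microRNA transcripts at the right place. They were chosen by locus identifier as known regulators of the phosphorylation or stability of HYL1, and all 8 were found among the 37869 loci in each count table. They are the mitogen-activated protein kinases MPK3 (AT3G45640) and MPK6 (AT2G43790), the abscisic acid-activated kinases SNRK2.2 (AT3G50500), SNRK2.3 (AT5G66880) and SNRK2.6 (AT4G33950), the phosphatases CPL1 (AT4G21670) and CPL2 (AT5G01270), and the E3 ubiquitin ligase COP1 (AT2G32950).

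The phosphorylation state of HYL1 is set by opposing enzymes. MPK3, MPK6 and the SnRK2 kinases can phosphorylate it, and CPL1 and CPL2 remove phosphate from it, a step needed for accurate processing by DCL1. COP1 affects HYL1 by another route, since it protects the protein from proteolysis in light-grown plants. Protein phosphatase 4 (PP4) is a further phosphatase, made of a catalytic subunit and regulatory subunits, and PP4R3A encodes one of the regulatory subunits.

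Polyadenylated RNA was sequenced from whole 12-day-old seedlings of Arabidopsis thaliana kept on plates of Murashige and Skoog medium in cycles of 16 h light and 8 h dark. The groups were the mutants pp4r3a-2 and pp4r3a-1 and the wild type Col-0, and both mutants were in the Col-0 background. The lesion that each allele carries is not given in the sources used here. Each group had 3 libraries, which the series describes as biological replicates. The comparisons below ask whether transcript levels of these HYL1 regulators differ when PP4R3A is mutated.

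The exon counts per library ran from 20733294 to 27022497, so that 3 counts corresponded to 0.111 to 0.145 CPM. CPM here is the exon count of a gene per 1e6 exon counts of its library after TMM scaling. PP4R3A itself averaged 18.4 ± 0.26 CPM in pp4r3a-2 and 62.2 ± 2.7 CPM in pp4r3a-1, against 80.6 ± 1.4 CPM in Col-0 (SD, n = 3 each). The library of pp4r3a-2 replicate 3 stood apart. Chloroplast-encoded genes took 0.962% of its exon counts, against 0.427% to 0.558% in the other 8 libraries. Its chi-square per degree of freedom against the other pp4r3a-2 libraries was 13.1 and 8.95, and other pairs within a group gave 1.66 to 4.22. Values that depend on it are given without it below. In whole seedlings, fewer cells of a type and less RNA per cell cannot be told apart.

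By exon counts, the clearest differences among the 8 genes were a higher MPK3 and a lower SNRK2.2 in both mutants. SNRK2.6 and COP1 were moderately higher in both mutants, SNRK2.3 was higher in pp4r3a-2 and was called lower in pp4r3a-1 with libraries that overlapped Col-0 (a call lost in 10 of 19 alternatives), and MPK6, CPL1 and CPL2 had log2 fold changes between −0.14 and 0.12. In pp4r3a-2, 4 of the 8 rose and 2 fell, where 35.6% of the 22631 genes tested were called higher and 35.8% lower. In pp4r3a-1, 4 rose and 3 fell, against 36.3% of all genes called higher and 36.1% lower. With this many genes called, the counts of called members are near the background and are not a result about these 8 genes. In the mean of both alleles, 3 rose and 2 fell, where 37.0% of all genes were called higher and 37.7% lower. Calls were made in edgeR's quasi-likelihood test at a Benjamini-Hochberg adjusted p under 0.05 over all genes tested, and both alleles were compared with the same 3 Col-0 libraries.

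**Figure D1:**
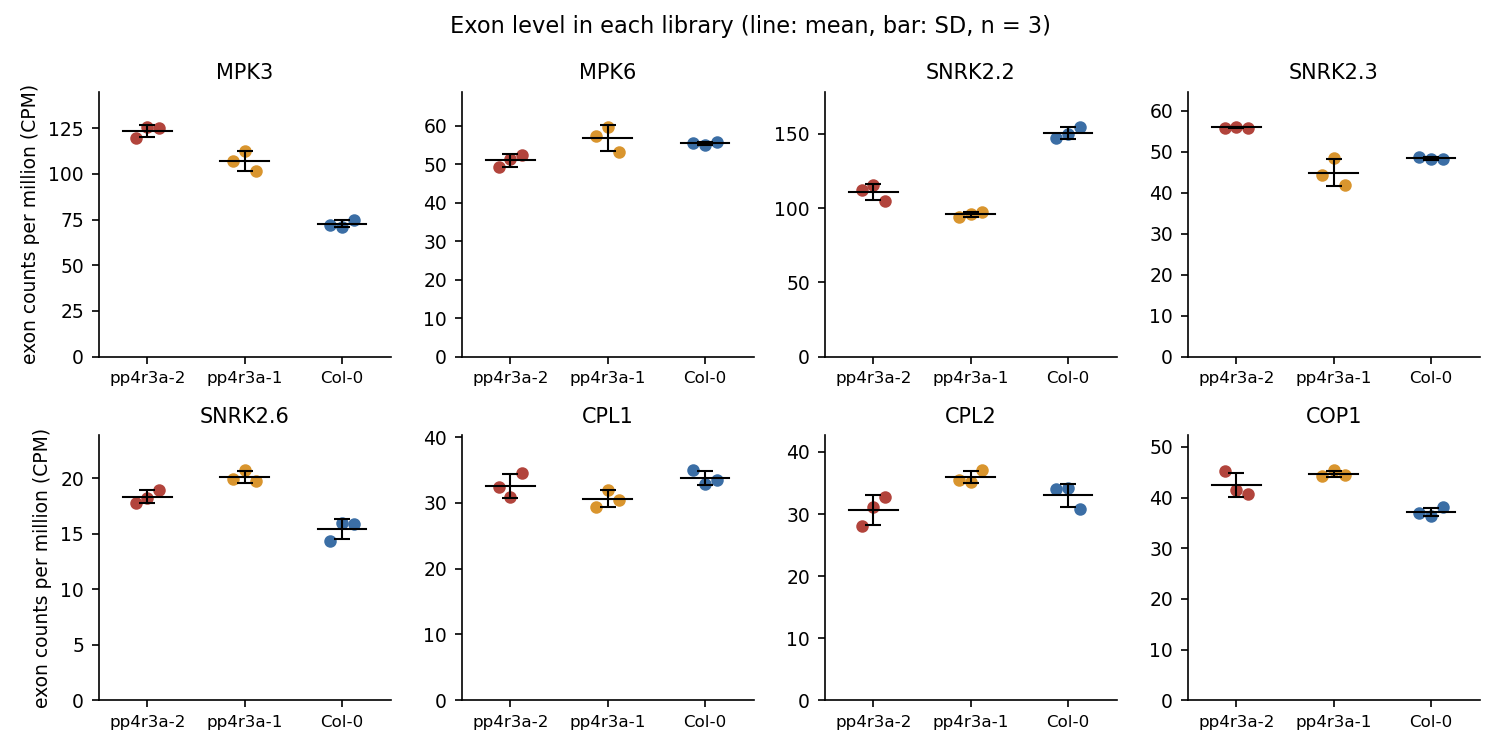
Exon level of the 8 genes in CPM (y axis, from 0) in each library of pp4r3a-2, pp4r3a-1 and Col-0 (x axis), with 1 point per library, a line at the mean and bars of 1 SD (n = 3). MPK3 lies above all Col-0 libraries in both mutants and SNRK2.2 below them, while MPK6, CPL1 and CPL2 differ less from Col-0. MPK6 in pp4r3a-2 and CPL1 in pp4r3a-1 still lie below all Col-0 libraries, and CPL2 in pp4r3a-1 lies above them.

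MPK3 and MPK6 are the terminal kinases of the same cascade and act together in stomatal patterning and defence. MPK3 had 119, 126 and 125 CPM in the pp4r3a-2 libraries and 107, 112 and 102 CPM in the pp4r3a-1 libraries, against 72.2, 71.1 and 74.8 CPM in the Col-0 libraries. Each genotype occupied its own range, highest in pp4r3a-2 and lowest in Col-0. MPK3 was 1.70-fold higher in pp4r3a-2 than in Col-0 (log2 fold change 0.76, SE 0.041, adjusted p = 9.9e-19 in edgeR). In pp4r3a-1 it was 1.47-fold higher than in Col-0 (log2 0.56, SE 0.041, adjusted p = 8.2e-15 in edgeR). Of all genes tested, 22.2% had a larger absolute log2 change than MPK3 in pp4r3a-2 and 35.5% had one in pp4r3a-1. MPK3 was higher in pp4r3a-2 than in pp4r3a-1 by 0.21 on the log2 scale (SE 0.040, adjusted p = 4.8e-05 in edgeR).

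MPK6 did not follow MPK3. It had 49.2, 51.4 and 52.4 CPM in pp4r3a-2 and 57.4, 59.8 and 53.3 CPM in pp4r3a-1, against 55.4, 55.1 and 55.8 CPM in Col-0. All pp4r3a-2 libraries lay below all Col-0 libraries, and the pp4r3a-1 libraries lay on both sides of them. MPK6 was lower in pp4r3a-2 than in Col-0 by a small amount (log2 −0.12, SE 0.045, adjusted p = 0.0174 in edgeR). DESeq2 did not call it (adjusted p = 0.0526), nor did edgeR without pp4r3a-2 replicate 1 (log2 −0.09, adjusted p = 0.0999), and the range over 19 alternatives was 0.000756 to 0.0999. In pp4r3a-1, MPK6 was not called (log2 0.04, 95% interval −0.05 to 0.13, adjusted p = 0.459 in edgeR). The alleles differed directly, with MPK6 lower in pp4r3a-2 than in pp4r3a-1 (log2 −0.16, SE 0.045, adjusted p = 0.0039 in edgeR).

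SNRK2.2, SNRK2.3 and SNRK2.6 are the SnRK2 kinases that abscisic acid activates through its receptors, with SNRK2.6 (OST1) known for closing stomata and SNRK2.2 and SNRK2.3 for seed and seedling responses. SNRK2.2 had 112, 116 and 105 CPM in pp4r3a-2 and 94.0, 95.7 and 97.6 CPM in pp4r3a-1, against 147, 150 and 155 CPM in Col-0. Every mutant library was below every Col-0 library, and the pp4r3a-1 libraries were the lowest. SNRK2.2 fell to 0.737 of the Col-0 level in pp4r3a-2 (log2 −0.44, SE 0.039, adjusted p = 1.6e-12 in edgeR). It fell to 0.636 of the Col-0 level in pp4r3a-1 (log2 −0.65, SE 0.039, adjusted p = 2.1e-17 in edgeR). Here 42.2% of all genes tested changed by more in pp4r3a-2 and 29.7% in pp4r3a-1. Between the alleles, SNRK2.2 was higher in pp4r3a-2 than in pp4r3a-1 (log2 0.21, SE 0.040, adjusted p = 2.9e-05 in edgeR).

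SNRK2.3, the closest relative of SNRK2.2, moved differently. It had 55.9, 56.2 and 55.9 CPM in pp4r3a-2 and 44.3, 48.5 and 41.9 CPM in pp4r3a-1, against 48.8, 48.3 and 48.2 CPM in Col-0. The pp4r3a-2 libraries were all above Col-0, and those of pp4r3a-1 overlapped Col-0. SNRK2.3 rose 1.16-fold in pp4r3a-2 (log2 0.21, SE 0.046, adjusted p = 0.00013 in edgeR) and was called lower in pp4r3a-1 (log2 −0.11, SE 0.047, adjusted p = 0.0395 in edgeR). The pp4r3a-1 call was lost in 10 of 19 alternatives, whose adjusted p ran from 0.00225 to 0.281. Among them were DESeq2 (adjusted p = 0.0911) and the fits without Col-0 replicate 1 (0.0904), replicate 2 (0.0766) or replicate 3 (0.0609), without pp4r3a-1 replicate 1 (0.103) or replicate 3 (0.281), and without pp4r3a-2 replicate 2 (0.0517). The difference between the alleles was kept in all 19 alternatives, with SNRK2.3 higher in pp4r3a-2 than in pp4r3a-1 by 0.32 on the log2 scale (SE 0.047, adjusted p = 4.9e-07 in edgeR). SNRK2.2 and SNRK2.3 are similar in sequence, and how the authors' counting treated reads that match both is not given in the sources used here.

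SNRK2.6 was the least abundant of the SnRK2 members. It had 17.8, 18.3 and 19.0 CPM in pp4r3a-2 and 19.95, 20.76 and 19.77 CPM in pp4r3a-1, against 14.4, 16.0 and 15.9 CPM in Col-0. Both mutants lay wholly above Col-0. The rise was 1.19-fold in pp4r3a-2 (log2 0.25, SE 0.065, adjusted p = 0.00079 in edgeR) and 1.31-fold in pp4r3a-1 (log2 0.39, SE 0.063, adjusted p = 1.0e-06 in edgeR). The alleles were not called different (log2 −0.14 for pp4r3a-2 against pp4r3a-1, 95% interval −0.26 to −0.01, adjusted p = 0.0657 in edgeR). Under library size scaling (log2 −0.18, adjusted p = 0.0212) and upper quartile scaling (log2 −0.16, adjusted p = 0.0323) SNRK2.6 was called lower in pp4r3a-2 than in pp4r3a-1, in a range of 0.0212 to 0.19 over 19 alternatives.

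CPL1 and CPL2 are related phosphatases of the C-terminal domain phosphatase-like family. CPL1 had 32.4, 31.0 and 34.5 CPM in pp4r3a-2 and 29.4, 32.0 and 30.5 CPM in pp4r3a-1, against 35.0, 32.9 and 33.6 CPM in Col-0. The pp4r3a-1 libraries were below Col-0 and those of pp4r3a-2 overlapped it. CPL1 was not called in pp4r3a-2 (log2 −0.06, 95% interval −0.16 to 0.05, adjusted p = 0.339 in edgeR). It was called lower in pp4r3a-1, at 0.906 of the Col-0 level (log2 −0.14, SE 0.052, adjusted p = 0.0137 in edgeR). Without Col-0 replicate 1 (adjusted p = 0.0753) or pp4r3a-1 replicate 1 (adjusted p = 0.0791) that call was lost, in a range of 0.00239 to 0.0791 over 19 alternatives. The call of CPL1 in the mean of both alleles (log2 −0.10, adjusted p = 0.0439 in edgeR) was lost in 10 of 18 alternatives, with adjusted p from 0.00376 to 0.208. Among these were the fits without Col-0 replicate 1 (adjusted p = 0.208) or 3 (0.0627), pp4r3a-1 replicate 1 (0.0960) or 3 (0.0656), and pp4r3a-2 replicate 1 (0.0667) or 2 (0.126). A comparison of pp4r3a-2 with pp4r3a-1 did not call CPL1 (log2 0.09, 95% interval −0.02 to 0.19, adjusted p = 0.176 in edgeR).

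CPL2 differed more between the alleles than from Col-0. It had 28.0, 31.2 and 32.8 CPM in pp4r3a-2 and 35.6, 35.2 and 37.1 CPM in pp4r3a-1, against 34.0, 34.2 and 30.9 CPM in Col-0. The pp4r3a-1 libraries lay above all others, while pp4r3a-2 and Col-0 overlapped. CPL2 was lower in pp4r3a-2 than in pp4r3a-1, at 0.852 of its level (log2 −0.23, SE 0.055, adjusted p = 0.00061 in edgeR). Against Col-0 it was not called in pp4r3a-2 (log2 −0.11, 95% interval −0.22 to 0.00, adjusted p = 0.0708 in edgeR), but it was called lower there without pp4r3a-2 replicate 3 (log2 −0.16, adjusted p = 0.0214) or Col-0 replicate 3 (log2 −0.16, adjusted p = 0.0182), in a range of 0.0077 to 0.473. In pp4r3a-1 it was called higher (log2 0.12, SE 0.054, adjusted p = 0.0433 in edgeR), a call lost in 9 of 19 alternatives with adjusted p from 0.0173 to 0.277. These included DESeq2 (adjusted p = 0.111) and the fits without Col-0 replicate 3 (0.277) or pp4r3a-1 replicate 3 (0.137).

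COP1 is the ubiquitin ligase that represses photomorphogenesis in darkness. It had 45.2, 41.5 and 40.8 CPM in pp4r3a-2 and 44.3, 45.4 and 44.4 CPM in pp4r3a-1, against 37.0, 36.4 and 38.1 CPM in Col-0. Every mutant library was above every Col-0 library. COP1 rose 1.14-fold in pp4r3a-2 (log2 0.19, SE 0.048, adjusted p = 0.00048 in edgeR) and 1.20-fold in pp4r3a-1 (log2 0.27, SE 0.047, adjusted p = 4.3e-06 in edgeR). The alleles were not called different (log2 −0.07, 95% interval −0.17 to 0.02, adjusted p = 0.198 in edgeR). In that direct comparison of pp4r3a-2 with pp4r3a-1, 5 of the 8 genes were called, 3 higher and 2 lower, where 24.2% of all genes were called higher and 23.7% lower.

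**Figure D2:**
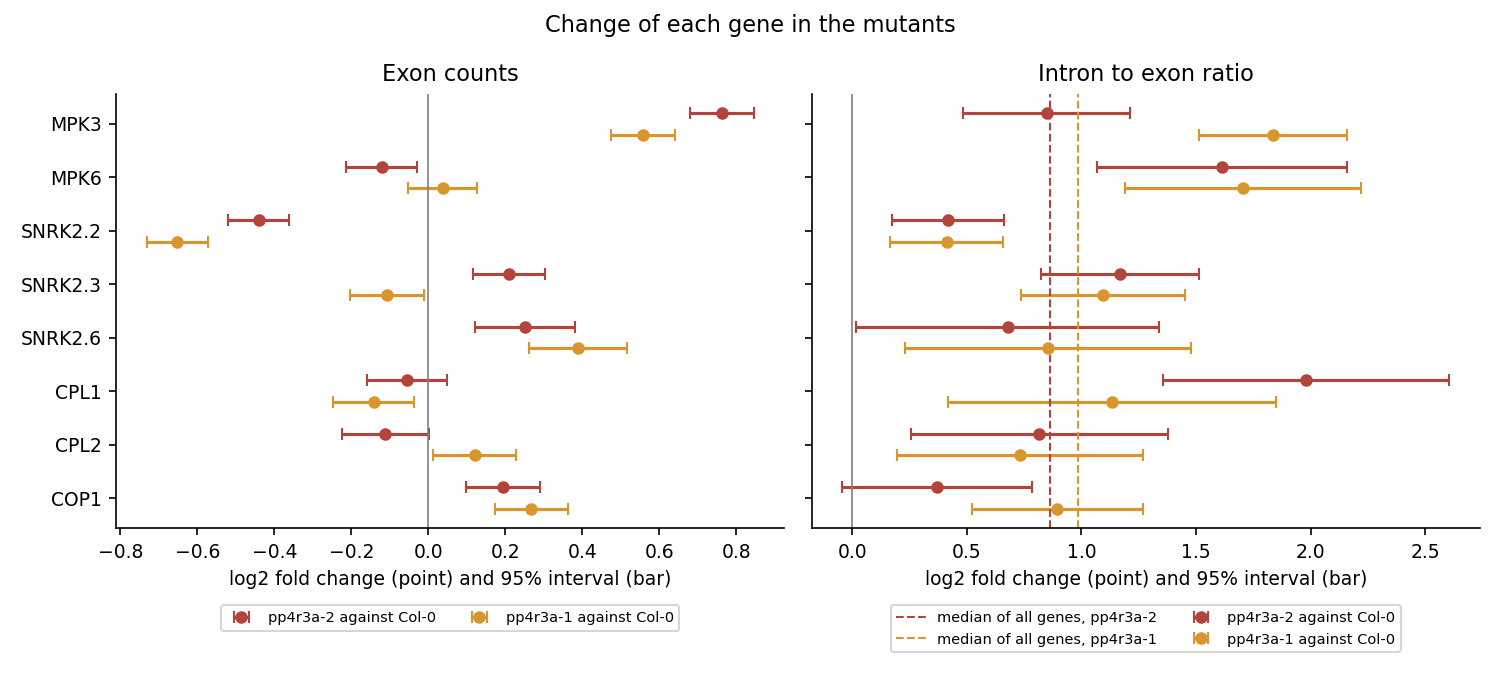
Log2 fold change of each gene (y axis) in pp4r3a-2 and pp4r3a-1 against Col-0, for exon counts (left x axis) and for the ratio of intron to exon counts (right x axis), with 95% intervals; dashed lines mark the median of all genes for the ratio. On the left MPK3 and SNRK2.2 lie farthest from 0, at 0.76 and −0.44 in pp4r3a-2, and on the right CPL1 in pp4r3a-2, at 1.98, and MPK3 in pp4r3a-1, at 1.84, lie farthest above the dashed medians of 0.86 and 0.98. For the ratio, CPL1 was so low in Col-0 that it had to differ in order to be tested. SNRK2.6 passed the minimum of 90 intron counts only through its higher counts in the mutants.

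Levels were compared between genes as exon counts per kilobase of exon on the CPM scale (RPKM), with exon lengths from the TAIR10.1 annotation, which may not be the annotation that was counted. In Col-0 the order was SNRK2.2 at 86.5 ± 2.3, MPK3 at 39.1 ± 1.0, MPK6 at 32.3 ± 0.20, SNRK2.3 at 29.6 ± 0.18, COP1 at 15.0 ± 0.34, CPL2 at 10.6 ± 0.61, CPL1 at 8.67 ± 0.28 and SNRK2.6 at 7.84 ± 0.46 RPKM (SD, n = 3 each). The ranges of neighbours in that order did not overlap. In both mutants MPK3 came first and its range overlapped that of SNRK2.2. MPK3 stood at 66.4 ± 1.8 and SNRK2.2 at 63.7 ± 3.2 RPKM in pp4r3a-2, and at 57.6 ± 2.8 and 55.0 ± 1.0 RPKM in pp4r3a-1. In both mutants SNRK2.6 stood above CPL1, which was the lowest of the 8. In pp4r3a-2, SNRK2.3 (34.2 ± 0.11 RPKM) stood above MPK6 (29.8 ± 0.95 RPKM), and the ranges of CPL2 and SNRK2.6 overlapped.

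Within the kinase classes the balance between members differed by genotype. The ratio of MPK3 to MPK6 in RPKM was 2.23 ± 0.031 in pp4r3a-2 and 1.74 ± 0.023 in pp4r3a-1, against 1.21 ± 0.024 in Col-0 (SD, n = 3 each). The ratio of SNRK2.2 to SNRK2.3 was 1.86 ± 0.089 in pp4r3a-2 and 2.01 ± 0.17 in pp4r3a-1, against 2.92 ± 0.094 in Col-0. In neither case did the mutant libraries overlap the Col-0 libraries. Summed over its members, the MAP kinase pair reached 96.2 ± 2.7 RPKM in pp4r3a-2 and 90.7 ± 4.7 RPKM in pp4r3a-1, against 71.5 ± 1.2 RPKM in Col-0. The 3 SnRK2 members summed to 107 ± 3.0 RPKM in pp4r3a-2 and 92.7 ± 2.2 RPKM in pp4r3a-1, against 124 ± 2.5 RPKM in Col-0. The phosphatase pair summed to 18.2 ± 1.1 RPKM in pp4r3a-2 and 19.4 ± 0.39 RPKM in pp4r3a-1, against 19.3 ± 0.71 RPKM in Col-0, with all genotypes overlapping. These sums and ratios were not tested.

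The tables also hold intron counts, which in polyadenylated RNA can come from transcripts that keep introns. Over the whole libraries there were 3.00 to 3.07 intron counts per 100 exon counts in pp4r3a-2 and 3.12 to 3.34 in pp4r3a-1, against 2.05 to 2.14 in Col-0. The median log2 change of the intron to exon ratio over 11219 genes tested was 0.86 in pp4r3a-2 and 0.98 in pp4r3a-1, and the members were read against these medians. The medians depend on the minimum of 90 summed intron counts, which genes low in Col-0 passed only if higher in the mutants. With a minimum of 450 they were 0.74 in pp4r3a-2 and 0.83 in pp4r3a-1. For the ratio, all genes means the 11219 tested. All 8 genes were among those tested, CPL1 and SNRK2.6 only through their higher intron counts in the mutants. The ratio was called higher for 6 of the 8 in pp4r3a-2, where 69.4% of all genes tested were called higher. It was called higher for all 8 in pp4r3a-1, where 77.0% of all genes were. The call was made in an edgeR quasi-likelihood model of intron and exon counts together, and a count of this size is near the background.

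Centring each library on its median ratio, with limma on the log2 ratio, gives the change of a gene relative to all genes tested. It therefore depends on which genes passed the minimum intron count. On that scale MPK6 and CPL1 rose and SNRK2.2 and COP1 fell in pp4r3a-2, where 14.4% of all genes were called higher and 17.9% lower. In pp4r3a-1, MPK3 and MPK6 rose and SNRK2.2 fell, where 15.0% of all genes were called higher and 17.9% lower. The other members were not called on this scale. The signs of the ratio before and after centring therefore differ for several genes, and both are given below.

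**Figure D3:**
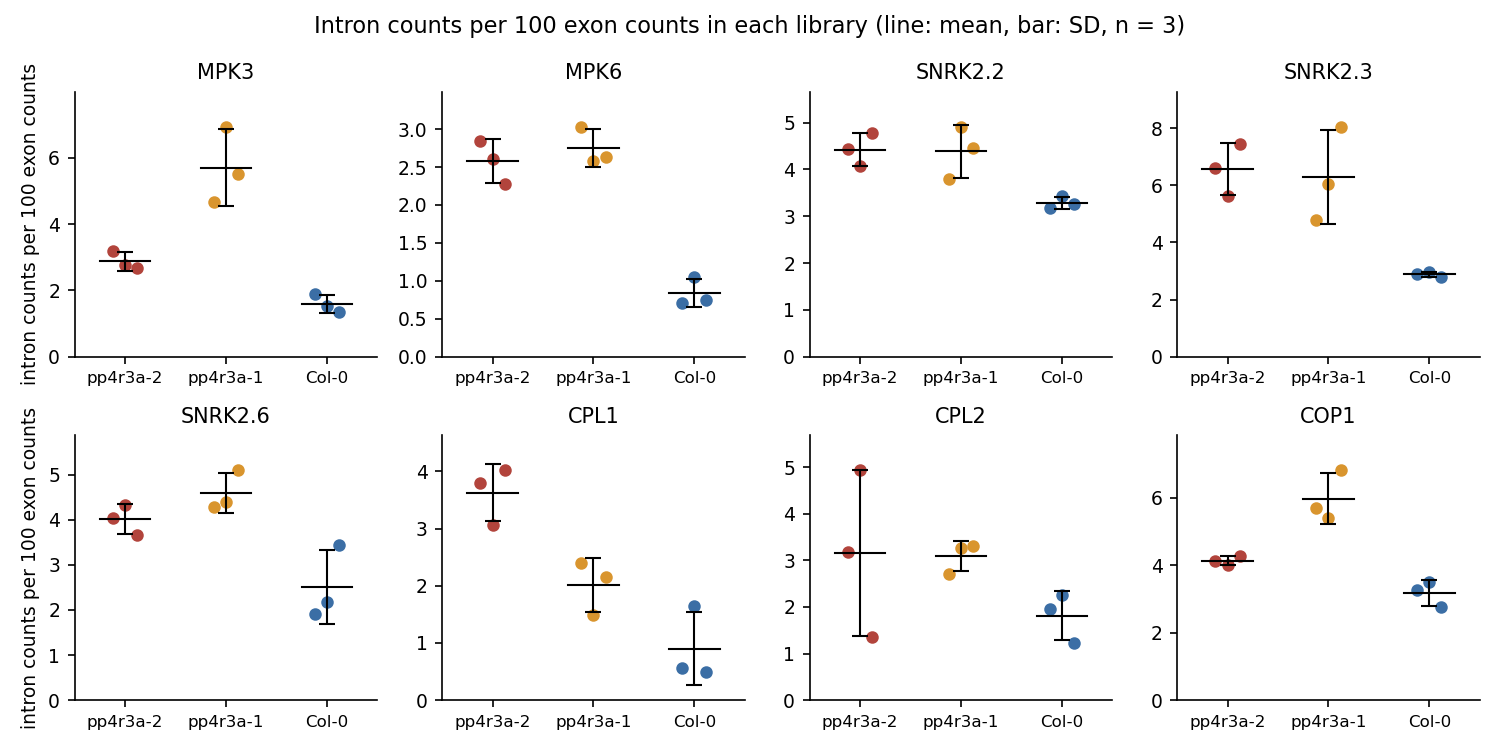
Intron counts per 100 exon counts of the 8 genes (y axis, from 0) in each library of pp4r3a-2, pp4r3a-1 and Col-0 (x axis), with 1 point per library, a line at the mean and bars of 1 SD (n = 3). MPK3 is highest in pp4r3a-1, at 4.65 to 6.94, CPL1 is highest in pp4r3a-2, at 3.06 to 4.02, and MPK6 in Col-0 lies at 0.71 to 1.05.

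MPK3 had 3.19, 2.76 and 2.66 intron counts per 100 exon counts in pp4r3a-2 and 4.65, 6.94 and 5.51 in pp4r3a-1, against 1.90, 1.52 and 1.35 in Col-0. The genotypes did not overlap, and the order of the alleles was the reverse of that for its exon level. A gene on the opposite strand, AT3G45645, overlaps MPK3 in TAIR10.1, and its part in these values was not tested. The log2 change of the ratio was 0.85 in pp4r3a-2 (SE 0.18, adjusted p = 2.0e-05 in edgeR) and 1.84 in pp4r3a-1 (SE 0.16, adjusted p = 2.5e-23 in edgeR). In pp4r3a-2 this lay at the median of all genes, with a centred log2 difference of −0.08 (adjusted p = 0.779 in limma). In pp4r3a-1 the centred difference was 0.78 (adjusted p = 0.0154 in limma). The ratio was lower in pp4r3a-2 than in pp4r3a-1 by edgeR (log2 −0.99, SE 0.13, adjusted p = 5.4e-11), and limma on the log2 ratio did not call this difference (adjusted p = 0.0809, and 0.131 after centring, in a range of 2.12e-12 to 0.131 over 14 alternatives).

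MPK6 was the member whose ratio rose on both scales in both alleles. It had 2.84, 2.61 and 2.27 intron counts per 100 exon counts in pp4r3a-2 and 3.03, 2.58 and 2.63 in pp4r3a-1, against 0.71, 1.05 and 0.75 in Col-0. Mutant and Col-0 libraries were well apart, and the mutants overlapped each other. The log2 change was 1.61 in pp4r3a-2 (SE 0.28, adjusted p = 6.6e-08 in edgeR; centred 0.67, adjusted p = 0.0270 in limma). In pp4r3a-1 it was 1.71 (SE 0.26, adjusted p = 1.4e-09 in edgeR; centred 0.65, adjusted p = 0.0295 in limma). These values rest on 24 to 47 intron counts per mutant library and 10 to 15 per Col-0 library. A gene on the opposite strand, AT2G09500, overlaps MPK6 in TAIR10.1 and had 6, 4 and 7 exon counts in pp4r3a-2 and 8, 9 and 8 in pp4r3a-1, against 1, 2 and 1 in Col-0. Another opposite-strand gene, AT2G43795, also overlaps MPK6. The strandedness of the counting is not given, and the part of these genes in the result was not tested.

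SNRK2.2 had 4.43, 4.06 and 4.78 intron counts per 100 exon counts in pp4r3a-2 and 3.79, 4.92 and 4.45 in pp4r3a-1, against 3.17, 3.43 and 3.25 in Col-0. Both mutants lay above Col-0, by less than most genes did. The log2 change was 0.42 in pp4r3a-2 (SE 0.12, adjusted p = 0.0016 in edgeR) and 0.41 in pp4r3a-1 (SE 0.13, adjusted p = 0.0019 in edgeR). Relative to all genes it fell, with a centred difference of −0.50 in pp4r3a-2 (adjusted p = 0.0258 in limma) and −0.63 in pp4r3a-1 (adjusted p = 0.0099 in limma). Of all genes tested, 76.1% had a higher log2 change of the ratio than SNRK2.2 in pp4r3a-2 and 81.8% in pp4r3a-1. SNRK2.2 overlaps no other gene in TAIR10.1 and had 96 to 133 intron counts per library.

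SNRK2.3 had 6.61, 5.62 and 7.45 intron counts per 100 exon counts in pp4r3a-2 and 4.77, 6.03 and 8.05 in pp4r3a-1, against 2.89, 2.96 and 2.79 in Col-0. The mutants overlapped each other and lay above Col-0. The log2 change was 1.17 in pp4r3a-2 (SE 0.18, adjusted p = 7.5e-10 in edgeR) and 1.10 in pp4r3a-1 (SE 0.18, adjusted p = 1.9e-08 in edgeR). After centring it was not called, with differences of 0.24 in pp4r3a-2 (adjusted p = 0.371 in limma) and 0.04 in pp4r3a-1 (adjusted p = 0.879 in limma). An opposite-strand gene in TAIR10.1, AT5G09785, had 24, 13 and 21 exon counts in pp4r3a-2 and 15, 3 and 9 in pp4r3a-1, against 3, 2 and 3 in Col-0, beside 32 to 87 intron counts of SNRK2.3 per library. A further opposite-strand gene, AT5G66890, had 5, 2 and 3 exon counts in pp4r3a-2 and 12, 13 and 8 in pp4r3a-1, against 0 in every Col-0 library. Their part in the result was not tested.

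SNRK2.6 had 4.05, 4.32 and 3.66 intron counts per 100 exon counts in pp4r3a-2 and 4.28, 4.38 and 5.10 in pp4r3a-1, against 1.91, 2.17 and 3.44 in Col-0. The mutants lay above Col-0, whose replicate 3 was nearest to them, and no library held more than 23 intron counts. Intron counts of SNRK2.6 summed to 51 in pp4r3a-2 and 69 in pp4r3a-1, against 29 in Col-0. At its Col-0 sum in every group it would have fallen just short of the minimum of 90. SNRK2.6 thus passed through its higher intron counts in the mutants, which limits the changes that follow. The ratio was not called in pp4r3a-2 (log2 0.68, 95% interval 0.02 to 1.34, adjusted p = 0.0621 in edgeR), but it was called there without Col-0 replicate 3 (log2 0.96, adjusted p = 0.0258), in a range of 0.0169 to 0.39. In pp4r3a-1 it was called higher (log2 0.85, SE 0.32, adjusted p = 0.0104 in edgeR), and not without Col-0 replicate 1 (log2 0.71, adjusted p = 0.0567), in a range of 0.00453 to 0.555. Centred differences were −0.24 in pp4r3a-2 and −0.17 in pp4r3a-1, neither called.

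CPL1 had 3.80, 3.06 and 4.02 intron counts per 100 exon counts in pp4r3a-2 and 2.39, 1.48 and 2.16 in pp4r3a-1, against 0.56, 1.65 and 0.50 in Col-0. The pp4r3a-2 libraries lay above all others, and pp4r3a-1 overlapped Col-0 through Col-0 replicate 2. Intron counts of CPL1 summed to 81 in pp4r3a-2 and 46 in pp4r3a-1, against 23 in Col-0. The minimum of 90 intron counts for testing was thus passed mainly through the mutants. A gene this low in Col-0 had to differ in order to be tested, which limits the changes and the rank that follow. In pp4r3a-2 the log2 change was 1.98 (SE 0.32, adjusted p = 8.1e-09 in edgeR; centred 1.20, adjusted p = 0.0404 in limma), with a higher change in 7.10% of all genes tested. In pp4r3a-1 it was 1.13 (SE 0.36, adjusted p = 0.0031 in edgeR), and the centred difference of 0.24 was not called (adjusted p = 0.662 in limma). By edgeR the ratio was higher in pp4r3a-2 than in pp4r3a-1 (log2 0.85, SE 0.27, adjusted p = 0.0296). That call was lost without pp4r3a-1 replicate 2 (adjusted p = 0.193), pp4r3a-2 replicate 1 (0.0887) or pp4r3a-2 replicate 3 (0.108) and by limma (0.381), in a range of 0.0255 to 0.381 over 13 alternatives. The nitrate transporter gene NRT1.8 (AT4G21680) overlaps CPL1 on the opposite strand in TAIR10.1. It had 14.7, 14.2 and 15.0 CPM in pp4r3a-2 and 8.79, 8.54 and 7.80 CPM in pp4r3a-1, against 2.58, 1.89 and 1.85 CPM in Col-0, the same order of genotypes as the CPL1 intron counts. Its part in the result was not tested.

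CPL2 varied widely between the pp4r3a-2 replicates, with 3.18, 4.94 and 1.36 intron counts per 100 exon counts in pp4r3a-2 and 2.71, 3.25 and 3.31 in pp4r3a-1, against 1.96, 2.26 and 1.22 in Col-0. The pp4r3a-2 libraries overlapped Col-0 and those of pp4r3a-1 did not. The ratio was called higher in pp4r3a-2 (log2 0.82, SE 0.28, adjusted p = 0.0076 in edgeR), and not without pp4r3a-2 replicate 2 (log2 0.30, adjusted p = 0.455) or Col-0 replicate 3 (adjusted p = 0.0577), in a range of 0.000244 to 0.633. It was called higher in pp4r3a-1 (log2 0.73, SE 0.27, adjusted p = 0.0110 in edgeR), and not without Col-0 replicate 3 (log2 0.54, adjusted p = 0.0819), in a range of 0.0069 to 0.664. Centred differences of −0.28 in pp4r3a-2 and −0.25 in pp4r3a-1 were not called.

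COP1 had 4.13, 4.00 and 4.26 intron counts per 100 exon counts in pp4r3a-2 and 5.69, 5.40 and 6.82 in pp4r3a-1, against 3.28, 3.50 and 2.76 in Col-0. The genotypes did not overlap, with pp4r3a-1 highest. In pp4r3a-2 the ratio was not called higher (log2 0.37, 95% interval −0.04 to 0.78, adjusted p = 0.104 in edgeR) and fell relative to all genes (centred −0.55, adjusted p = 0.0263 in limma). In pp4r3a-1 it rose with the median (log2 0.89, SE 0.19, adjusted p = 9.3e-06 in edgeR), with a centred difference of −0.14 that was not called. The ratio was lower in pp4r3a-2 than in pp4r3a-1 by edgeR (log2 −0.52, SE 0.18, adjusted p = 0.0423). That call was lost in 8 of 13 alternatives, among them without pp4r3a-1 replicate 1 (adjusted p = 0.0585) or 3 (0.193) and without pp4r3a-2 replicate 1 (0.104), 2 (0.134) or 3 (0.0736), in a range of 0.0402 to 0.353. Between the alleles, 1.48% of all genes had a ratio called higher and 6.68% a ratio called lower, and 3 of the 8 members were called, CPL1 higher and MPK3 and COP1 lower.

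**Figure D4:**
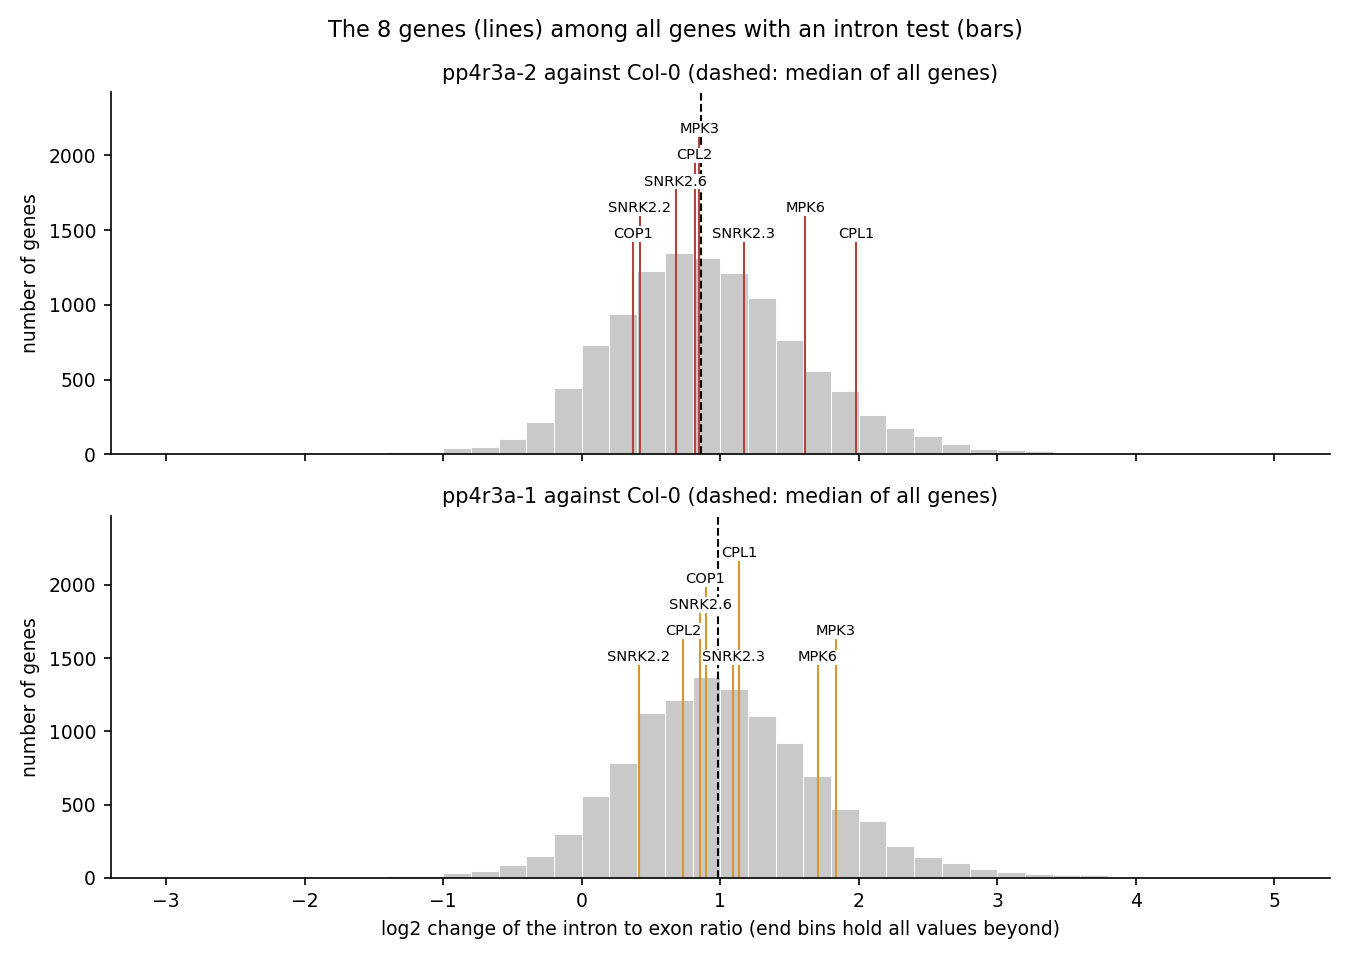
Number of genes (y axis) by log2 change of the intron to exon ratio (x axis, bins of 0.2) over the 11219 genes tested, for pp4r3a-2 above and pp4r3a-1 below, each against Col-0, with the 8 genes as lines and the median as a dashed line. The 8 genes spread over the body of the distribution, from COP1 at 0.37 to CPL1 at 1.98 in pp4r3a-2 and from SNRK2.2 at 0.41 to MPK3 at 1.84 in pp4r3a-1.

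The neighbours of each member in its own pathway were then read from 6 lists of 64 genes. In the mean of both alleles 37.0% of all genes were called higher and 37.7% lower, and the counts of each list are to be read against these shares. In the MPK3 and MPK6 cascade, 10 of the 14 genes tested rose and 2 fell in the mean of both alleles. Its median log2 change was 0.29, against −0.01 over all genes. AP2C1, a phosphatase that inactivates MAP kinases, averaged 18.4 ± 0.61 CPM in pp4r3a-2 and 27.8 ± 0.45 CPM in pp4r3a-1, against 11.7 ± 1.1 CPM in Col-0. The kinase kinase MKK9, which acts upstream of MPK3 and MPK6, averaged 16.3 ± 1.1 CPM in pp4r3a-2 and 30.2 ± 2.0 CPM in pp4r3a-1, against 13.5 ± 0.85 CPM in Col-0. Both were higher in pp4r3a-1 than in pp4r3a-2, the opposite order to MPK3. MPK4, a MAP kinase of a parallel cascade, rose 1.36-fold in pp4r3a-2 and 1.31-fold in pp4r3a-1. MAPKKK5, an upstream kinase, rose 1.24-fold in pp4r3a-2 and 1.33-fold in pp4r3a-1. For these 4 genes the adjusted p in edgeR for the mean of both alleles ran up to 3.4e-09 (MAPKKK5). The listed kinases other than the members showed 7 higher and 0 lower of 8 tested in the mean of both alleles, and the listed MAP kinase phosphatases 3 higher and 2 lower of 6, where 37.0% of all genes were higher and 37.7% lower. The upstream kinase MKK7 was not tested.

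Of the 16 other SnRK2 kinases and abscisic acid receptors, 4 rose and 9 fell in the mean of both alleles, where 37.0% of all genes rose and 37.7% fell, with a median log2 change of −0.20. That many called genes is near the share over all genes. The 4 that rose were SnRK2 kinases and 6 of the 9 that fell were receptors. By allele, 3 of the 9 receptors were called higher and 6 lower in pp4r3a-2, where 35.6% of all genes were called higher and 35.8% lower. In pp4r3a-1, 0 receptors were called higher and 8 lower, where 36.3% of all genes were called higher and 36.1% lower. The receptor PYL8 averaged 68.9 ± 4.1 CPM in pp4r3a-2 and 37.5 ± 0.74 CPM in pp4r3a-1, against 136 ± 4.4 CPM in Col-0. The receptor PYR1 averaged 43.5 ± 2.7 CPM in pp4r3a-2 and 27.7 ± 0.37 CPM in pp4r3a-1, against 80.0 ± 3.4 CPM in Col-0. PYL5, another receptor, averaged 24.6 ± 1.9 CPM in pp4r3a-2 and 10.4 ± 1.2 CPM in pp4r3a-1, against 32.5 ± 0.56 CPM in Col-0. All 3 receptors fell in both alleles and, like SNRK2.2, were lower in pp4r3a-1 than in pp4r3a-2 (adjusted p of that difference in edgeR 2.3e-18 for PYL8, 2.3e-13 for PYR1 and 3.3e-17 for PYL5). SNRK2.8, a SnRK2 kinase that abscisic acid activates weakly, showed the largest rise of the 16 genes in each allele. It averaged 27.6 ± 1.8 CPM in pp4r3a-2 and 13.8 ± 0.79 CPM in pp4r3a-1, against 4.09 ± 0.24 CPM in Col-0, a 6.78-fold and a 3.36-fold rise.

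Among the relatives and partner of CPL1, 2 rose and 1 fell of 3 in the mean of both alleles, where 37.0% of all genes rose and 37.7% fell. CPL3, a phosphatase of the RNA polymerase II tail, averaged 64.7 ± 2.7 CPM in pp4r3a-2 and 46.1 ± 3.6 CPM in pp4r3a-1, against 45.4 ± 0.17 CPM in Col-0. It rose in pp4r3a-2 alone (log2 0.51, adjusted p = 8.1e-12 in edgeR, and 0.02, adjusted p = 0.716, in pp4r3a-1), and the alleles differed (log2 0.49, adjusted p = 6.9e-11 in edgeR). CPL4 was higher in pp4r3a-1 (log2 0.28, adjusted p = 0.0013 in edgeR) and was not called in pp4r3a-2 (log2 0.09, adjusted p = 0.290 in edgeR). The direct comparison called it lower in pp4r3a-2 than in pp4r3a-1 (log2 −0.19, adjusted p = 0.0423 in edgeR), a call lost without pp4r3a-1 replicate 1 (0.0800), 2 (0.0683) or 3 (0.0597) and without pp4r3a-2 replicate 1 (0.148) or 2 (0.177). Its call in the mean (log2 0.19, adjusted p = 0.0126 in edgeR) was lost without Col-0 replicate 1 (0.0917) or 2 (0.0505). HOS5, an RNA-binding partner of CPL1, averaged 14.1 ± 1.4 CPM in pp4r3a-2 and 14.2 ± 0.14 CPM in pp4r3a-1, against 16.6 ± 1.3 CPM in Col-0, and was called lower in each, in pp4r3a-2 only with replicate 3 of that mutant (log2 −0.16, adjusted p = 0.0568 in edgeR without it).

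Among the COP1 partners, the DET1 complex and the COP9 signalosome, 15 of 20 genes rose and 2 fell in the mean of both alleles, where 37.0% of all genes rose and 37.7% fell, with a median log2 change of 0.26. The SPA proteins form the active ubiquitin ligase with COP1, and all 4 SPA genes rose in each allele. SPA1 averaged 102 ± 1.7 CPM in pp4r3a-2 and 120 ± 2.1 CPM in pp4r3a-1, against 40.0 ± 0.83 CPM in Col-0. SPA3 rose 1.49-fold in pp4r3a-2 and 1.82-fold in pp4r3a-1, SPA4 1.84-fold and 1.69-fold, and SPA2 1.28-fold and 1.45-fold in the same order. The adjusted p of the mean of both alleles in edgeR ran from 2.6e-29 (SPA1) to 1.7e-12 (SPA2). These rises were larger than that of COP1 itself, at 1.14-fold in pp4r3a-2 and 1.20-fold in pp4r3a-1, a difference that was not tested. Of the 10 COP9 signalosome subunit genes, 8 rose and 0 fell in pp4r3a-2, where 35.6% of all genes rose and 35.8% fell. In pp4r3a-1, 7 rose and 1 fell, where 36.3% of all genes rose and 36.1% fell.

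By exon counts HYL1, the shared target, was not called in either mutant. It averaged 16.7 ± 0.90 CPM in pp4r3a-2 and 17.6 ± 0.24 CPM in pp4r3a-1, against 17.2 ± 0.70 CPM in Col-0, and was named after its values were seen. The 95% interval of its log2 change was −0.17 to 0.09 in pp4r3a-2 (adjusted p = 0.565 in edgeR) and −0.09 to 0.16 in pp4r3a-1 (adjusted p = 0.622 in edgeR). Its intron counts were few but differed. HYL1 had 2.16, 3.95 and 3.99 intron counts per 100 exon counts in pp4r3a-2 and 3.40, 4.87 and 4.02 in pp4r3a-1, against 0, 0.43 and 0.998 in Col-0. The mutant libraries lay above Col-0, on sums of 39 intron counts in pp4r3a-2 and 54 in pp4r3a-1, against 6 in Col-0. The log2 change of the ratio was 2.79 in pp4r3a-2 (SE 0.52, adjusted p = 5.7e-07 in edgeR) and 3.06 in pp4r3a-1 (SE 0.48, adjusted p = 3.7e-09 in edgeR), against medians of 0.86 and 0.98 over all genes. The minimum of 90 intron counts was passed mainly through the mutants, so a gene this low in Col-0 had to differ in order to be tested. The log2 change ran from 2.1 to 3.75 in pp4r3a-2 and from 2.29 to 4.02 in pp4r3a-1 over 8 alternatives. Without Col-0 replicate 1 it was 2.24 in pp4r3a-2 and 2.51 in pp4r3a-1, and without Col-0 replicate 3 it was 3.75 in pp4r3a-2 and 4.02 in pp4r3a-1. It had no value without 5 of the 6 mutant libraries, one at a time. AT1G09690, which overlaps HYL1 on the same strand in TAIR10.1, had 73, 71 and 58 intron counts in pp4r3a-2 and 100, 87 and 92 in pp4r3a-1, against 30, 40 and 30 in Col-0, and its part in the result was not tested.

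Of the 6 genes of HYL1 and its processing partners, 3 rose and 1 fell by exon counts in the mean of both alleles, where 37.0% of all genes rose and 37.7% fell. SE, the zinc-finger partner of HYL1, averaged 86.0 ± 2.8 CPM in pp4r3a-2 and 88.8 ± 1.7 CPM in pp4r3a-1, against 65.5 ± 2.4 CPM in Col-0. DCL1 averaged 41.7 ± 2.9 CPM in pp4r3a-2 and 47.4 ± 1.6 CPM in pp4r3a-1, against 52.2 ± 0.64 CPM in Col-0, and fell in both. The cap-binding subunit CBP80 rose by 0.12 on the log2 scale in pp4r3a-2 (adjusted p = 0.0120 in edgeR, lost without Col-0 replicate 3 at 0.0544) and by 0.37 in pp4r3a-1 (adjusted p = 1.1e-09 in edgeR). KETCH1, an importin that carries HYL1 into the nucleus, rose by 0.19 in pp4r3a-2 and by 0.17 in pp4r3a-1 on the log2 scale.

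Of the 4 PP4 subunit genes, 1 rose and 2 fell in the mean of both alleles, where 37.0% of all genes rose and 37.7% fell. PP4R3A fell to 0.228 of Col-0 in pp4r3a-2 and to 0.772 in pp4r3a-1. The catalytic subunit gene PPX2 averaged 12.4 ± 0.47 CPM in pp4r3a-2 and 12.2 ± 0.87 CPM in pp4r3a-1, against 15.0 ± 0.35 CPM in Col-0, and fell in both (adjusted p = 7.0e-05 for the mean in edgeR). The other catalytic subunit gene, PPX1, was not called in either allele (adjusted p = 0.226 in pp4r3a-2 and 0.204 in pp4r3a-1 in edgeR). PP4R2L, a regulatory subunit gene, was higher in pp4r3a-2 (log2 0.22, adjusted p = 0.0047 in edgeR) and was not called in pp4r3a-1 (log2 0.08, adjusted p = 0.271 in edgeR), a difference between the alleles that was not called (adjusted p = 0.0983 in edgeR) except without pp4r3a-2 replicate 2 (0.0252). Its call in the mean (log2 0.15, adjusted p = 0.0211 in edgeR) was lost by DESeq2 (0.0661) and without Col-0 replicate 2 (0.113) or pp4r3a-2 replicate 3 (0.0524).

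**Figure D5:**
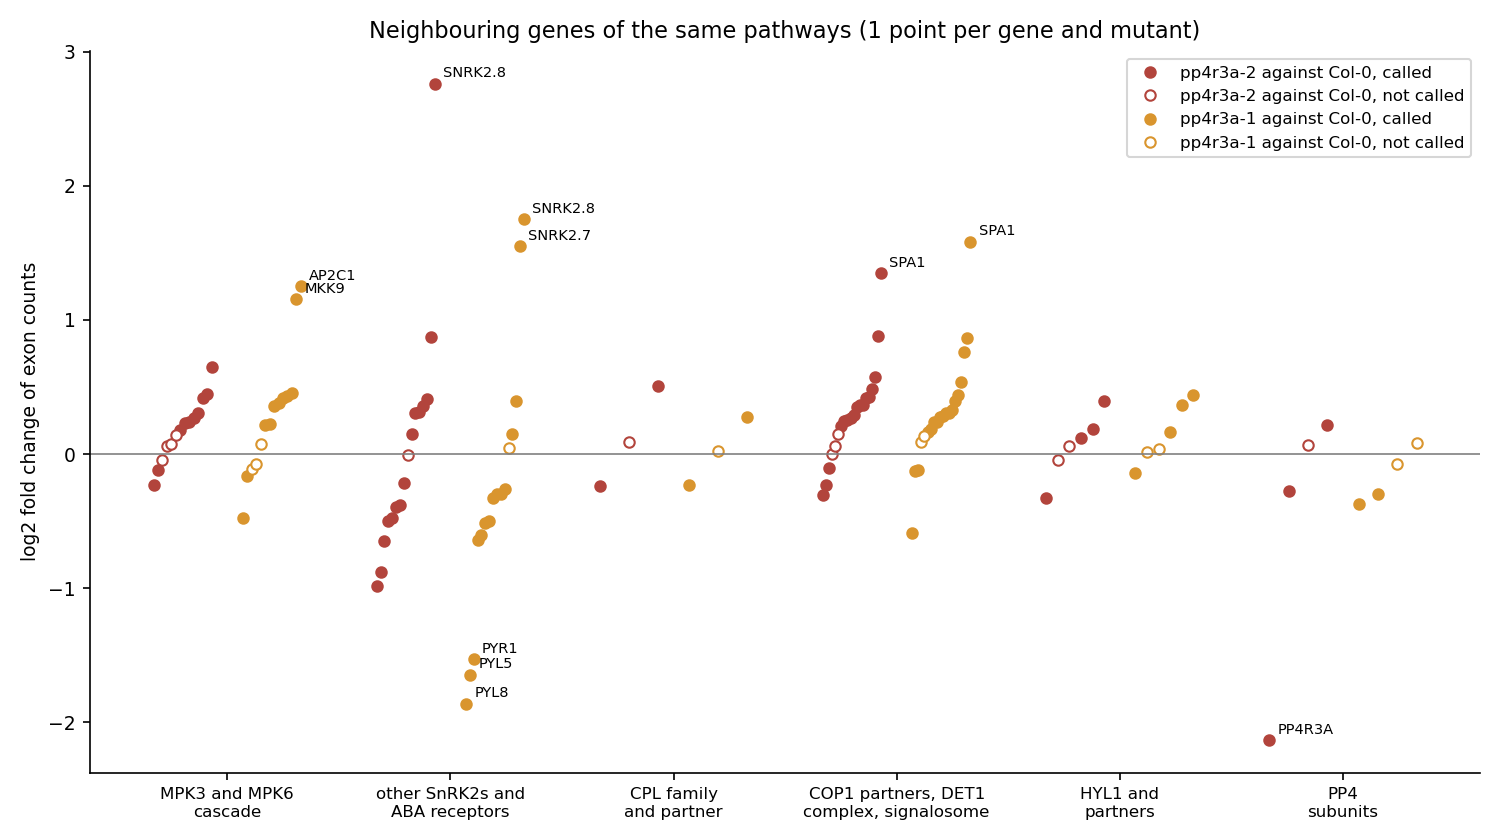
Log2 fold change of exon counts against Col-0 (y axis) for the genes of 6 pathway lists (x axis), with pp4r3a-2 left and pp4r3a-1 right in each list, filled where called at an adjusted p under 0.05 in edgeR and open where not; genes past 1 in absolute log2 change are named. The SPA1 points stand at 1.35 and 1.58, PYL8 at −0.98 (unlabelled) and −1.86, SNRK2.8 at 2.76 and 1.75, and PP4R3A at −2.13 in pp4r3a-2.

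The genes whose exon level followed each member most closely over the 9 libraries were found by Pearson's r of log2 CPM among 13424 genes with a mean of at least 10 CPM. With 3 genotypes among 9 libraries, a high r says mainly that the genotype means fall in the same order and spacing. The closest to MPK3 was BPS1 (r = 0.998), followed by AT3G16370 (r = 0.998), and 872 genes had an r above 0.95. SNRK2.2 was matched by AT5G01010 (r = 0.996) and AT4G34090 (r = 0.995), with 1250 genes above 0.95. SNRK2.6 was matched by AT4G10430 (r = 0.991) and WAVE2 (r = 0.987), with 411 genes above 0.95, and COP1 by KMS1 (r = 0.986) and AT5G08580 (r = 0.985), with 97. The other members had few close matches. SNRK2.3 was closest to TROL (r = 0.983) and U2B'' (r = 0.970), with 19 genes above 0.95. MPK6 was closest to AT3G10527 (r = 0.970) and AT1G14670 (r = 0.941), with 1 gene above 0.95. CPL1 was closest to AT1G15240 (r = 0.974) and RWA1 (r = 0.958), and CPL2 to AT5G03140 (r = 0.972) and PDH-E1 ALPHA (r = 0.970), with 3 genes above 0.95 each.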

How the data were processed

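In the deposited tables, 1 for each of 9 libraries, every locus has a count for exons and another for introns (per the file headers), and these whole numbers were used as raw counts. Alignment was by STAR, per the submitters' processing notes, with no version stated. Which genome build, annotation and counter were used, whether counting used strand, and how introns were defined is not given in the sources used here, so no coordinates or sequences are printed. Names, exon lengths and overlaps come from TAIR10.1, which held 37573 of the loci and lacked 296. The 8 genes, the 6 lists and the tests were chosen with earlier results of these data known.

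Low exon counts were removed by the filterByExpr rule, TMM factors set the scale, and edgeR 4.0.16 (R 4.3.3) gave robust quasi-likelihood tests with 1 mean per genotype over all 9 libraries and 22631 genes (biological coefficient of variation 0.0388). SE is the absolute log2 change over the square root of F. The intron to exon ratio was tested in edgeR as an interaction of genotype and count type, with a term for each library, in the 11219 genes that had a summed intron count of 90 or more. The ratio relative to all genes was taken with limma 3.58.1 on the log2 ratio (pseudocount 0.5) after subtracting each library's median. DESeq2 1.42.0, other scalings, filters and thresholds, a replicate term and the omission of each library were alternatives. Tests were two-sided, with Benjamini-Hochberg adjustment over all genes tested.

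From each list up to 4 genes with a mean of at least 1 CPM and the smallest p in the mean of both alleles were named, and for each of the 8 genes the 2 with the highest r. HYL1, PYL4, PYL6, PYL7 and HY5, and the opposite-strand genes, were named outside this rule. The libraries are biological replicates per the labels, and the p-values measure the spread between them. The floor of 3 counts covers counting error only. On simulated data for the mean of both alleles, the exon test (22066 genes) returned all 67 genes changed 1.5-fold, with 9 false calls of 209 in all. The ratio test (8082 genes) returned 85% of 200 genes changed 2-fold, with 14 false calls of 184. These simulations changed few genes, in random directions, and gave intron counts the spread of exon counts. For the ratio, only genes above a set Col-0 intron level were changed. In the data, 37.0% of genes were called higher and 37.7% lower by exon counts in the mean of both alleles. The recovery and false-call figures are therefore not error rates for these data.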

Additional observations from a re-analysis of the deposited data

Results flagged for a closer look

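The following differences between the alleles were picked out because the contrast against Col-0 differed between pp4r3a-2 and pp4r3a-1 in a direct edgeR test of pp4r3a-2 against pp4r3a-1. For exon counts the log2 difference was 0.21 for MPK3, −0.16 for MPK6, 0.21 for SNRK2.2, 0.32 for SNRK2.3 and −0.23 for CPL2. PP4R3A itself averaged 18.4 CPM in pp4r3a-2 and 62.2 CPM in pp4r3a-1. For the intron to exon ratio the log2 difference was −0.99 for MPK3, 0.85 for CPL1 and −0.52 for COP1, against a median of −0.11 over all genes. With 3 libraries per group, single libraries were not tested as outliers.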

How the results depend on the processing

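Each library was left out in turn, and scaling, filter, test and threshold were varied. No alternative ended or turned the exon calls of MPK3, SNRK2.2, SNRK2.6 and COP1 in either mutant. Leaving out 1 library gave 5 to 7 members called by exon counts in each mutant, 4 to 5 in the mean of both alleles and 5 in the comparison of pp4r3a-2 with pp4r3a-1. At an adjusted p under 0.01, 4 were called in pp4r3a-1. By the intron to exon ratio, leaving out 1 library gave 5 to 6 members in pp4r3a-2, 7 to 8 in pp4r3a-1 and 1 to 3 between the alleles, with 1 without pp4r3a-2 replicate 1 or replicate 3. Requiring 450 intron counts left 3 members, MPK3, SNRK2.2 and SNRK2.3, with 3 called in each mutant and in the mean, and 1 between the alleles. With centred ratios, 3 were called in pp4r3a-1 and 2 in the mean. Between the alleles 1 was called at an adjusted p under 0.01 and 0 by limma on the ratio or the centred ratio. Shares over all genes under these alternatives are not given here, so the counts are not a result about the members. Under the main settings the ratio was called higher for 69.4% of all genes in pp4r3a-2 and 77.0% in pp4r3a-1. At the median of all genes no scaling moved the exon log2 change by as much as 0.1. The median log2 change of the ratio did move when 450 intron counts were required. It went from 0.86 to 0.74 in pp4r3a-2 and from 0.98 to 0.83 in pp4r3a-1.

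Signs turned mostly where values were near 0. Under library size scaling and upper quartile scaling, the exon log2 change was −0.0222 and −0.0407 for CPL2 and −0.002 and −0.0204 for TROL in the mean of both alleles, and −0.005 and −0.0323 for AT1G14670 in pp4r3a-1. Between pp4r3a-2 and pp4r3a-1 these scalings gave −0.018 and −0.0005 for KETCH1 and −0.0173 and −0.0003 for PPX2. Upper quartile scaling gave −0.0139 for CPL3 in pp4r3a-1. The stricter filter gave −0.0001 for CPL2 in the mean and −0.001 for AT1G14670 in pp4r3a-1, and no filter gave 0.0066 for PPX1 in the mean. Leaving out 1 library gave exon log2 ranges of −0.0352 to 0.0832 for CPL3 and −0.0227 to 0.0287 for AT1G14670 in pp4r3a-1, and −0.069 to 0.0022 for HYL1 in pp4r3a-2. In the mean of both alleles they were −0.045 to 0.0368 for CPL2, −0.0194 to 0.0214 for PPX1, −0.1084 to 0.0706 for AT5G03140 and −0.0459 to 0.0108 for PDH-E1 ALPHA. Between the alleles they were −0.0647 to 0.0664 for HOS5, −0.0013 to 0.0555 for KETCH1 and −0.0347 to 0.0755 for PPX2.

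For the ratio, centring gave −0.0812 for MPK3, −0.502 for SNRK2.2, −0.243 for SNRK2.6, −0.2777 for CPL2 and −0.552 for COP1 in pp4r3a-2. In pp4r3a-1 it gave −0.6289 for SNRK2.2, −0.17 for SNRK2.6, −0.254 for CPL2 and −0.1439 for COP1, and in the mean −0.5654, −0.2065, −0.2659 and −0.348 for the same genes. These follow from subtracting the library median, which was higher in the mutants. Between pp4r3a-2 and pp4r3a-1, centring gave 0.0182 for MPK6 and −0.0237 for CPL2, and limma on the ratio gave −0.1325 for CPL2. Leaving out 1 library gave ranges of −0.4354 to 0.4239 for CPL2, −0.0946 to 0.0996 for SNRK2.2 and −0.0931 to 0.2639 for SNRK2.3. The cause was not tested for the other changes of sign.

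Replicate numbers did not pair the libraries: the 9 pairs with the same number had correlations of their deviations from −0.041 to 0.031, and 0 of 9 libraries correlated best with its own number. With a replicate block, exon counts called 6 members in pp4r3a-2, 6 in pp4r3a-1, 4 in the mean and 5 between the alleles, and the ratio called 6, 8, 8 and 3 in the same order. The shares over all genes with that block are not given here either. Intron counts limit precision most for SNRK2.6, CPL1 and CPL2, which had 4 to 39 per library.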

Other observations

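Besides SNRK2.3, whose call in pp4r3a-1 was lost in 10 of 19 alternatives, 4 list genes were called in opposite directions in the alleles, and they were named after their values were seen. The share of all genes called in opposite directions was not counted, so this number is not a result about these genes. In the direct comparison of pp4r3a-2 with pp4r3a-1, 24.2% of all genes were called higher and 23.7% lower. The abscisic acid receptor gene PYL4 averaged 98.2 ± 6.2 CPM in pp4r3a-2 and 62.2 ± 4.2 CPM in pp4r3a-1, against 76.5 ± 1.9 CPM in Col-0 (SD, n = 3 each). Its relative PYL6 averaged 10.2 ± 0.40 CPM in pp4r3a-2 and 4.95 ± 0.34 CPM in pp4r3a-1, against 7.73 ± 0.58 CPM in Col-0. The call of PYL7 in pp4r3a-2 (adjusted p = 0.0339 in edgeR) was lost by DESeq2 (0.101) and without Col-0 replicate 1 (0.172) or 2 (0.0562) or pp4r3a-2 replicate 1 (0.0641) or 3 (0.0890). PYL7 averaged 18.6 ± 0.42 CPM in pp4r3a-2 and 11.9 ± 0.35 CPM in pp4r3a-1, against 16.8 ± 0.88 CPM in Col-0. The direct comparison of pp4r3a-2 with pp4r3a-1 gave log2 differences of 0.66 for PYL4, 1.05 for PYL6 and 0.65 for PYL7 (adjusted p in edgeR 4.1e-14, 8.8e-12 and 2.8e-10). HY5, the light-signalling transcription factor that COP1 marks for degradation, ran the other way. It averaged 9.07 ± 0.27 CPM in pp4r3a-2 and 13.6 ± 1.5 CPM in pp4r3a-1, against 11.2 ± 0.34 CPM in Col-0, with a log2 difference of −0.59 between pp4r3a-2 and pp4r3a-1 (adjusted p = 1.7e-07 in edgeR).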
